A study of Bos taurus with 24 samples.

Results

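Chaperones and protein folding enzymes were read from 110 array features that name 67 genes, out of 17418 features on the array. A feature was taken where the platform gives it 1 gene symbol and that symbol starts with HSPA, HSPB, HSPD, HSPE, HSPH, HSP90, DNAJ, PDIA, or with CCT or BAG and a digit, or is TCP1, CALR, CANX, P4HB or HYOU1. In all, 13605 features have 1 symbol, for 9425 genes. The 67 genes were sorted by where the protein works: 12 in the lumen of the endoplasmic reticulum (ER), 4 in the ER membrane with a J domain that faces the cytosol, 40 in the cytosol, 6 in mitochondria and 5 elsewhere. CANX, HSPH1, CCT8, DNAJC3 and DNAJC10, which the same symbols or lists would include, are not among the named features.

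The tissue was bovine ovarian follicle, the fluid-filled structure in which granulosa and theca cells surround an oocyte. Whole follicles of 8 to 12 mm, 1 from each of 16 heifers, were compared in pairs on 24 two-colour arrays, and every follicle was on 3 arrays. The labels name follicles 26, 27, 31, 33, 46, 8, 861, C10, C12, C13, C22, C26, C32, C35, H893 and J980 and give no treatment, stage or health status, so the follicles are the only groups. No follicle is a control, and each was therefore set against the mean of the other 15.

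Secreted and membrane proteins fold in the ER lumen, where HSPA5 (BiP) and HSP90B1 (GRP94) hold unfolded chains, and protein disulfide isomerases such as P4HB, PDIA4 and PDIA6 form and rearrange disulfide bonds. When unfolded protein accumulates there, sensors in the ER membrane raise the transcription of many of these genes, a program known as the unfolded protein response. In the cytosol, HSP70, HSP90 and the ring-shaped chaperonin TRiC fold newly made chains, and the heat shock response raises a different set, with HSPA1A among its strongest genes. In mitochondria, HSPA9 pulls imported chains in, and HSPD1 with its lid HSPE1 folds them. Granulosa cells secrete inhibins, follistatin and matrix proteins, all of which pass through the ER.

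A level here is the estimate for a follicle on a log2 scale, relative to the mean of all 16. Its standard error (SE) comes from array error over the 3 arrays of the follicle, or fewer where values are missing. The base of the logs was taken as 2 from the range of the values, and is not stated. The direction of the ratio was taken as Cy5 over Cy3, which the labels make likely but do not state. With another base the fold changes below would differ. With the inverse ratio every level, difference and array ratio below would change sign, while the F test and the correlations between levels would stay the same. The SE of a level had a median of 0.13 over genes. Since each animal gave 1 follicle, the tests compare these RNA samples and hold no spread between animals. In bulk tissue, fewer cells of a type and less RNA per cell cannot be told apart, and log ratios hold no absolute level, so they cannot show whether a marker is absent. The number of arrays limits the precision.

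Of the 62 chaperone genes with values on at least 20 arrays, 10 passed limma's moderated F test for any difference among the follicles, at a Benjamini-Hochberg adjusted p of 0.05. These were HSP90B1, PDIA4, HSPA5 and PDIA6 of the ER lumen, CCT2, CCT6A and HSPA8 of the cytosol, and HSPD1, DNAJC19 and HSPA9 of mitochondria. Of all 9031 genes tested, 1020 (11.3%) passed the same test, against 16.1% of the chaperone genes, and the median SD of levels was 0.20 for the chaperone genes and 0.17 for all genes. By place, 4 of 11 ER lumen genes passed, 3 of 38 cytosolic genes and 3 of 6 mitochondrial genes. None of the 3 tested ER membrane genes and none of the 4 tested genes of other places passed the limma F test, and 0 of these 7 had an unadjusted p under 0.05. At that unadjusted level there were 5 ER lumen genes, 11 cytosolic genes (28.9%) and 3 mitochondrial genes, where 26.0% of all genes were. Follicle J980 had the most genes that differed from the other follicles, and without its 3 arrays 6 chaperone genes and 642 of all genes passed, with PDIA6, HSPA8, HSPD1, DNAJC19 and HSPA9 no longer among them. Just inside the threshold were PDIA6 and HSPA8 (adjusted p = 0.0216 each) and HSPA9 (0.0309), and just outside it were DNAJB9 (0.0635), CCT7 (0.0704) and HSPA4 (0.0719).

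**Figure D1:**
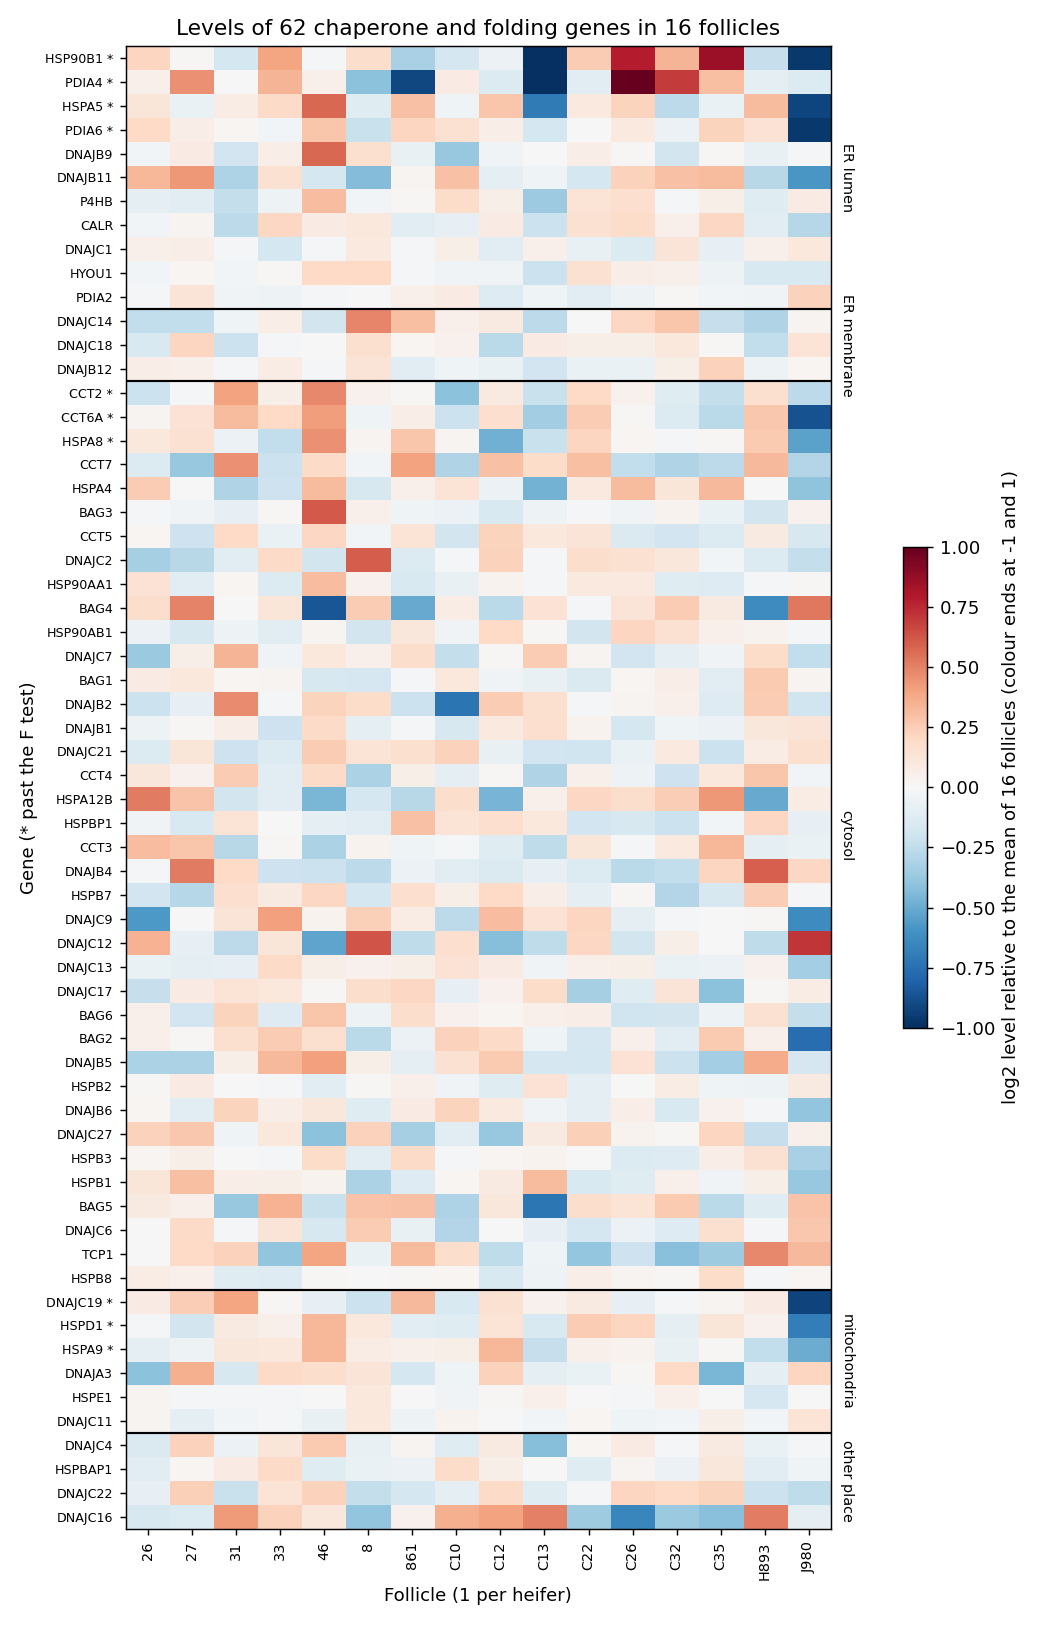
Log2 level of each of the 62 tested chaperone and folding genes (rows, grouped by place in the cell, smallest p first) in each of the 16 follicles (columns), relative to the mean of the 16. Red is higher, blue is lower, the colours end at -1 and 1, and a star marks the 10 genes past the F test. In J980 all 10 starred rows are below 0, and the darkest blue cells of C13 are HSP90B1 and PDIA4.

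Among the ER lumen genes, HSP90B1, the HSP90 of the ER, had the smallest adjusted p of all chaperone genes (7.86e-04). Its levels ran from -1.10 ± 0.13 (SE, 3 arrays) in C13, through a median of 0.00, to 0.85 ± 0.16 in C35. Both C13 and J980 (-0.96 ± 0.13) lay far below the next lowest follicle, 861 at -0.32, and both C35 and C26 (0.78 ± 0.12) lay well above the next highest, 33 at 0.39. On the arrays themselves, the log2 ratio of HSP90B1 was -1.06 for J980 over 8, -1.15 for J980 over 27 and 1.11 for 26 over J980. It was -1.02 for C13 over 46, 0.90 for 31 over C13 and 1.59 for 33 over C13. Every one of these 6 arrays thus put J980 or C13 below its partner.

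PDIA4, a disulfide isomerase with several thioredoxin-like domains, had levels from -1.24 ± 0.20 in C13 to 1.05 ± 0.19 in C26, with a median of 0.02 (adjusted p of the limma F test = 0.00495). C32 was next highest at 0.70 and 861 next lowest at -0.91. J980, the second lowest follicle for HSP90B1, was close to the middle for PDIA4, at -0.13 ± 0.21. The 2 features of PDIA4 differed on that point, with -0.68 and 0.41 in J980, while both were low in C13 (-1.45 and -1.04) and high in C26 (0.97 and 1.12).

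HSPA5, the HSP70 of the ER and the usual marker of folding load there, ranged from -0.91 ± 0.16 in J980 to 0.57 ± 0.17 in follicle 46, with a median of 0.09 (adjusted p of the limma F test = 0.00977). C13 was also low, at -0.70 ± 0.16, and the third lowest follicle was C32 at -0.26. Follicles C26 and C35, the highest for HSP90B1, had HSPA5 levels of only 0.22 and -0.07. One of the 2 HSPA5 features had values on 17 arrays, and the other alone gave -1.01 in J980 and 0.60 in follicle 46.

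PDIA6, another disulfide isomerase, was low in J980 alone, at -0.97 ± 0.14, and lay between -0.22 and 0.27 in the other 15 follicles (median 0.07, adjusted p = 0.0216). Its 3 features gave -1.80, -0.85 and -0.31 in J980, so they shared the direction there but not the size.

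**Figure D2:**
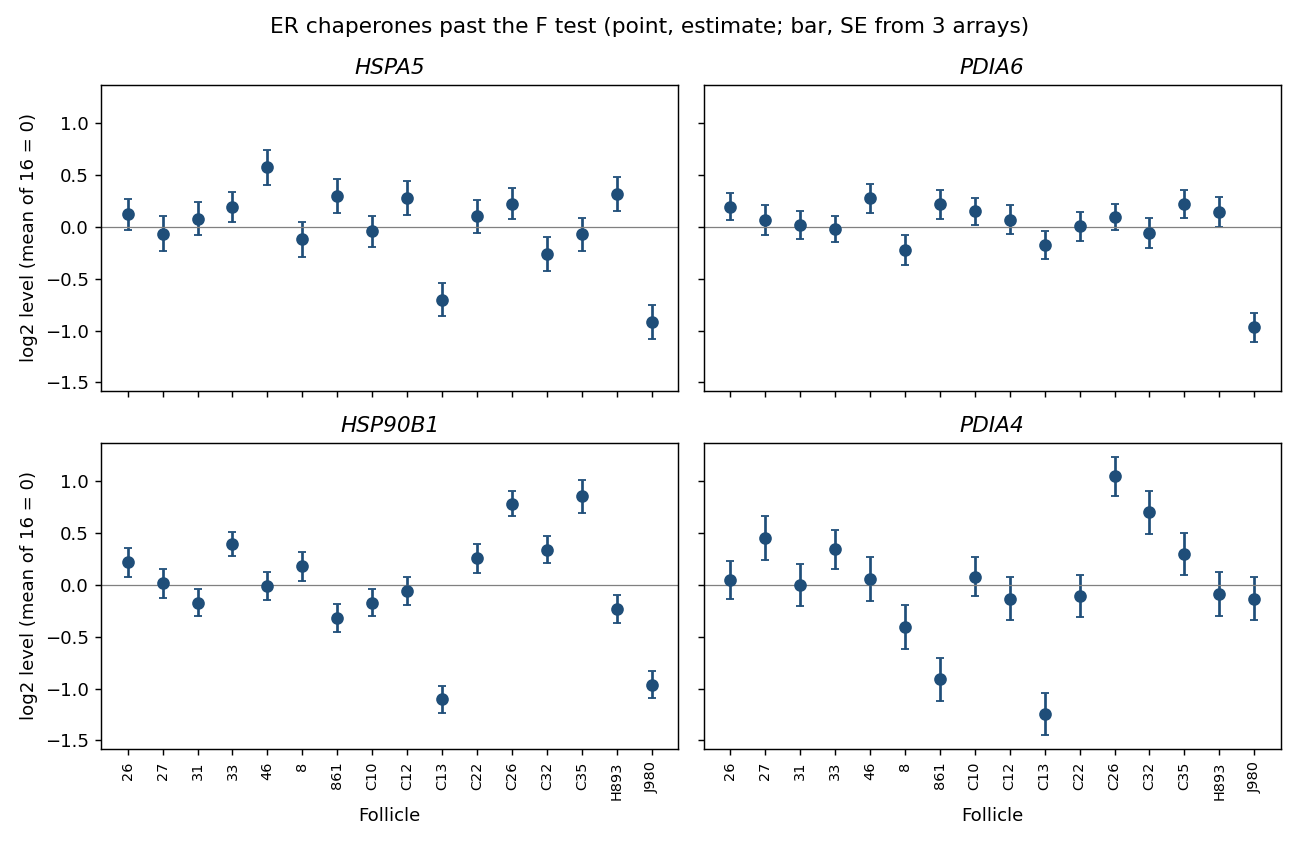
Log2 levels of the 4 ER lumen genes past the F test in each follicle (points) with their SE (bars), relative to the mean of 16. The SE comes from 3 arrays, or fewer in some follicles for HSP90B1, which had values on 23 arrays. HSPA5 and PDIA6 are lowest in J980 (-0.91 and -0.97), while PDIA4 is lowest in C13 (-1.24) and near 0 in J980, and HSP90B1 is low in both.

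The other 7 tested ER lumen genes did not pass. DNAJB9, a J protein that hands substrates to HSPA5, was near 0 in most follicles (median -0.01) and at 0.58 ± 0.13 in follicle 46, where the next highest follicle had 0.16. Its lowest level was -0.38 in C10. DNAJB11, a J protein with the same partner, ran from -0.58 ± 0.23 in J980 to 0.43 ± 0.24 in 27 (adjusted p = 0.232). P4HB, the best known disulfide isomerase, ran from -0.36 in C13 to 0.31 in 46 (adjusted p = 0.273). CALR, a lectin chaperone that binds glycoproteins, ran from -0.29 in J980 to 0.21 in C35 (adjusted p = 0.529). HYOU1, an ER relative of HSP70, ran from -0.21 to 0.20, PDIA2 from -0.13 to 0.23 and DNAJC1 from -0.17 to 0.13. PDIA3, a disulfide isomerase that works with calreticulin, had values on 11 arrays and was not tested.

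Several of these flat averages hid features that disagreed. Of 5 CALR features, 1 was at -1.51 ± 0.20 in J980 (adjusted p of its own limma F test = 0.004), while the others gave -0.23, -0.01, 0.21 and 0.22 there. P4HB had 1 feature at -0.37 and another at 0.54 in J980. HYOU1 features on at least 20 arrays gave -0.44, -0.09 and 0.66 there.

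In the cytosol, TRiC subunits and HSPA8 passed and the other families did not. CCT2, a TRiC subunit, was highest in follicles 46 (0.48 ± 0.09) and 31 (0.40 ± 0.08), lowest in C10 (-0.41 ± 0.08) and had a median of 0.03 (adjusted p of the limma F test = 0.00199). CCT6A, another subunit, ran from -0.87 ± 0.16 in J980 to 0.42 ± 0.16 in follicle 46, with a median of 0.05 (adjusted p = 0.0121). Its 2 features agreed in J980 (-0.89 and -0.85) but not in C13 (-0.97 and 0.27). HSPA8, the constitutive cytosolic HSP70, ran from -0.54 ± 0.14 in J980 to 0.45 ± 0.15 in follicle 46, with a median of 0.02. C12 was close to J980 at -0.48. The 3 HSPA8 features gave -1.12, -0.75 and 0.32 in J980.

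TRiC assembles from 8 different subunits, and 7 genes of it were tested. CCT7 and CCT5 came close to the threshold (adjusted p = 0.0704 and 0.0813), CCT4 and CCT3 did not (0.313 and 0.342), and TCP1, the first subunit, had 0.905. Levels of CCT5 and CCT7 had a Pearson r of 0.938 over the 16 follicles and those of CCT2 and CCT6A 0.790. CCT3 ran the other way, with r of -0.595 against both CCT5 and CCT7, and in all 15 of the 21 subunit pairs had a positive r. These r are descriptions, since the points share arrays through the loop of pairs. In J980 the TRiC genes had a median level of -0.16 with 6 of 7 below 0, and in follicle 46 a median of 0.21 with 6 of 7 above 0.

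No other cytosolic gene passed. HSP90AA1, the stress-inducible HSP90, ran from -0.16 to 0.31 ± 0.10 in follicle 46 (adjusted p = 0.129). HSP90AB1, the constitutive one, ran from -0.19 in 8 to 0.21 in C26 (adjusted p = 0.176), and 1 of its 3 features was high in C26 at 0.67 where the others gave 0.04 and -0.07. HSPA4, a nucleotide exchange factor of the HSP110 type, ran from -0.48 ± 0.15 in C13 to 0.32 ± 0.15 in C35. Of 14 HSP40 genes tested, 0 passed and 1 had an unadjusted p under 0.05. Among them DNAJB1, the partner of HSP70 in the heat shock response, ran only from -0.21 to 0.19 (adjusted p = 0.295), and the widest range was that of DNAJC12, from -0.53 ± 0.25 in 46 to 0.71 ± 0.25 in J980. Small heat shock proteins with an HSPB symbol, which leaves out CRYAB, had 0 of 5 past the limma test and 0 at an unadjusted p under 0.05. Among them HSPB1 ran from -0.38 in J980 to 0.32 in C13 (adjusted p = 0.773).

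Nucleotide exchange factors and BAG proteins, which release substrates from HSP70, had 0 of 7 past the limma F test and 2 at an unadjusted p under 0.05. BAG3, which links HSP70 to selective autophagy, was at 0.61 ± 0.12 in follicle 46 and between -0.18 and 0.05 in the other 15 (adjusted p = 0.0762). BAG4 had the opposite extreme, at -0.85 ± 0.19 in follicle 46 and 0.52 ± 0.16 in J980 (adjusted p = 0.150). It had no value on the array of C13 over 46. BAG1, BAG2, BAG5, BAG6 and HSPBP1 had adjusted p from 0.239 to 0.829. DNAJA1 and HSPA2 of the cytosol, DNAJB14 of the ER membrane and DNAJB13 had values on 13 to 19 arrays and were not tested.

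Mitochondrial chaperones were split. HSPD1, the barrel of the mitochondrial chaperonin, ran from -0.69 ± 0.11 in J980 to 0.33 ± 0.11 in follicle 46, with a median of 0.05 (adjusted p of the limma F test = 0.0150). DNAJC19, a J protein of the import motor, ran from -0.92 ± 0.15 in J980 to 0.40 ± 0.14 in 31, with a median of 0.03 (adjusted p = 0.0147). HSPA9, the mitochondrial HSP70, ran from -0.49 ± 0.11 in J980 to 0.33 ± 0.11 in C12 (median 0.04, adjusted p = 0.0309). For HSPD1 and DNAJC19, no other follicle lay below -0.21. HSPE1, the lid of the HSPD1 barrel, stayed between -0.17 ± 0.12 and 0.10 ± 0.12 (adjusted p = 0.976). DNAJA3 and DNAJC11 did not pass either (adjusted p = 0.728 and 0.995). The 2 features of HSPD1 gave -0.99 and -0.30 in J980.

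When each follicle was set against the mean of the other 15, 12 of 992 combinations of chaperone gene and follicle passed (1.21%), all in genes past the F test, against 0.825% of the combinations over all genes. Follicle J980 had 8 of them, all lower: HSP90B1, PDIA6 and HSPA5 of the ER, CCT6A and HSPA8 of the cytosol, and DNAJC19, HSPD1 and HSPA9 of mitochondria. These were 12.9% of the 62 genes, against 545 of all 9031 genes lower in J980 (6.03%). The adjusted p of these limma contrasts ran from 0.00216 for HSP90B1 to 0.0421 for HSPA8. All 8 calls were lost without 1 array that does not hold J980, that of C10 replicate 1, with adjusted p of 0.124 to 0.920 in limma. Without it the levels in J980 stayed below 0, from -1.26 for HSP90B1 to -0.14 for HSPA8. The count of all genes called lower in J980 without that array is not reported here. The 3 arrays of J980 had SDs of 0.474, 0.544 and 0.526, where the other arrays ran from 0.278 to 0.488. With all arrays scaled to the same spread, the J980 calls of CCT6A, HSPA8 and HSPA9 were lost. No chaperone gene was higher in J980, where 1.92% of all genes were. The 62 levels in J980 had a median of -0.06, with 37 below 0, against a median of 0.00 over all genes.

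J980 stood apart in cell type markers too. Of 9 granulosa markers tested, 7 were below 0 in J980, with 3 lower by the contrast, among them INHBA at -2.69 and FST at -2.05, and GATM higher at 0.71. Of 9 theca and stroma markers, 7 were below 0 and 4 were lower by the contrast, with COL1A2 at -0.66. Of 11 macrophage and leukocyte markers, 7 were above 0 and 2 were higher by the contrast, with CXCR4 at 2.06. Of 8 plasma cell and B cell markers, 6 were above 0, from -0.38 to 0.25, and none passed the limma contrast. The granulosa markers CYP19A1 and FSHR did not pass the F test. The part of these markers in the chaperone levels of J980 was not tested.

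The other 4 calls lay in C26, C13 and 46. In C26, HSP90B1 (0.78 ± 0.12, adjusted p of the limma contrast = 0.0111) and PDIA4 (1.05 ± 0.19, adjusted p = 0.0205) were higher, where 0.864% of all genes were. In C13, HSP90B1 was lower (adjusted p = 0.0497), where 0.0111% of all genes, that is HSP90B1 alone, passed as lower. The call failed in 17 of the 24 refits without a single array, over which the level lay between -1.36 and -0.91. PDIA4 in C13 lay even lower at -1.24 without passing, though 1 of its features did pass by itself (-1.45, adjusted p = 0.022). In follicle 46, CCT2 was higher (0.48 ± 0.09, adjusted p = 0.0488), where 0.133% of all genes were, and the call failed in all 24 such refits. The theca and stroma markers of C13 were below 0 in 8 of 9 genes, with DCN lowest at -0.73, and its macrophage and leukocyte markers in 8 of 11, and none passed the limma contrast. Their part in the ER levels of C13 was not tested.

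Of 8 markers of plasma cells, which make much ER protein, and B cells, 4 were highest in C26: IGHG1, IGHM, JCHAIN and PRDM1. IGHG1 was at 1.73 in C26, IGHM at 1.17 and JCHAIN at 1.14, and these 3 were higher by the contrast, with 7 of the 8 above 0 there. C32 came next, with IGHG1 at 1.11, and had PDIA4 at 0.70 and HSP90B1 at 0.34. SDC1 and MZB1, further plasma cell markers, were at 0.03 and 0.09 in C26 and did not pass the F test, and CD79A and CD79B were highest in follicle 46. C35 had HSP90B1 as high as C26, at 0.85, with IGHG1 at 0.15 and JCHAIN at 0.32. Of 11 macrophage and leukocyte markers, 10 were above 0 in C26 and 2 were higher by the contrast. The part of these cells in HSP90B1 and PDIA4 was not tested.

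HSPA1A, the inducible cytosolic HSP70, had its largest value in follicle 46. It is carried by 2 features that the platform assigns to HSPA1A under 2 gene IDs, so it falls outside the 110 features, and such near-identical copies may share signal. Both features passed the limma F test over features (adjusted p = 2.01e-04 and 2.31e-06), where 1994 of 16358 features did (12.2%) and 18 of the 97 tested chaperone features did. The first feature was at 3.39 ± 0.24 in follicle 46, against -1.02 to 0.33 in the other 15 follicles. The second was at 3.80 ± 0.17 in follicle 46, against -1.41 to 0.70 in the other 15. Those are 12.3-fold and 16.6-fold over the mean of the other follicles (adjusted p of the limma contrast = 4.79e-05 and 6.82e-07), and the call held in every alternative in which these features were fitted. For the first feature the log2 ratio was 3.14 on the array of 46 over 861, -3.87 on that of C13 over 46 and -3.47 on that of C12 over 46. For the second feature those arrays gave 4.69, -4.18 and -3.93. The 2 dye orientations thus agreed in direction. The features had an r of 0.919 with each other over 16 follicles and 0.490 without 46. Follicle 31 was lowest for both, at -1.02 and -1.41. Only the second feature passed as lower there (adjusted p of the limma contrast = 0.0750 and 0.00203).

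CRYAB, a small heat shock protein outside the symbols chosen, was also high in follicle 46, at 1.92 ± 0.16 against at most 0.46 elsewhere (adjusted p of the limma contrast = 1.85e-04). The other heat shock genes that were tested did not pass the contrast. BAG3 was at 0.61 (adjusted p of the limma contrast = 0.0755), HSPA8 at 0.45, HSPD1 at 0.33 and HSP90AA1 at 0.31, each the highest of the 16 follicles. DNAJB1 was also highest there, at 0.19 ± 0.11, but C13 had 0.17. The HSP40 gene DNAJA1, with values on 19 arrays, was not tested. Its log2 ratio was 1.42 for 46 over 861, -1.33 for C13 over 46 and -0.63 for C12 over 46. Each of these arrays put 46 above its partner. HSPA4, at 0.32, was second to C35, while HSPB1 (0.04), HSP90AB1 (0.03), HSPB8 (0.01) and HSPE1 (0.00) were near the mean. Of the 11 ER lumen genes, 7 were above 0 in follicle 46 (median 0.08), with HSP90B1 at -0.01 and PDIA4 at 0.05. Of 12 ER stress genes, 9 were above 0 (median 0.18), with ATF4 at 0.09. HSPA5 at 0.57, DNAJB9 at 0.58, the ER stress factor DDIT3 at 0.36 and the ER-resident secreted protein MANF at 0.45 had their highest level in follicle 46, again without passing the contrast. Of all genes, 12 were higher in follicle 46 by the contrast and 17 lower, and the higher ones included the metallothioneins MT1A, MT2A and MT3 at 1.01, 1.01 and 1.28. Follicle 46 was not the highest for MT1A and MT2A, which reached 1.83 and 1.63 in another follicle, and MT3 reached 1.13 elsewhere. Granulosa markers were above 0 in follicle 46 for 7 of 9 genes, from -0.25 to 0.92, and theca and stroma markers for 8 of 9, from -0.44 to 0.48. Plasma cell and B cell markers were above 0 for 4 of 8, from -0.84 to 0.70, and macrophage and leukocyte markers below 0 for 10 of 11, from -0.83 to 0.34, with 1 lower by the contrast. Their part in these levels was not tested.

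**Figure D3:**
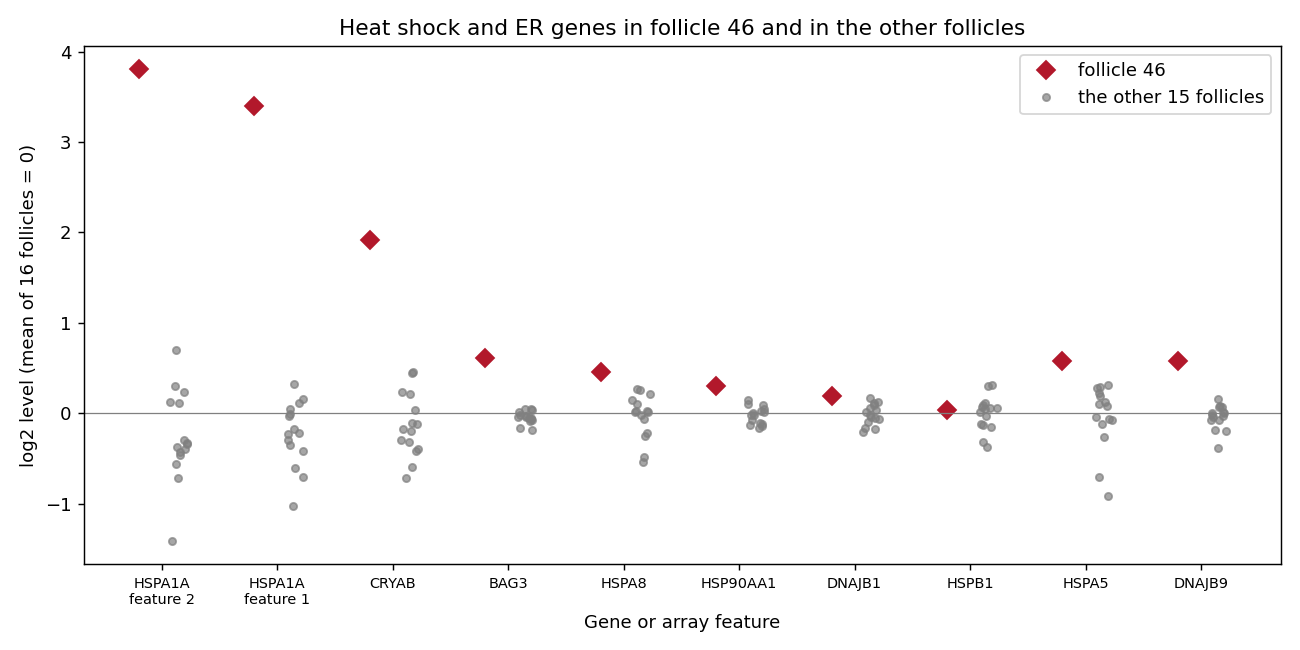
Log2 levels of 2 HSPA1A features and 8 genes in follicle 46 (red diamonds) and in the other 15 follicles (grey points, spread sideways for legibility), relative to the mean of 16. The HSPA1A features at 3.39 and 3.80 and CRYAB at 1.92 stand far above the grey points, BAG3 and DNAJB9 by less, and HSPB1 lies among them.

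Of the mean levels by place, that of the ER lumen had the largest SD over follicles. The mean of the 11 ER lumen genes had an SD of 0.165 over follicles, from -0.37 in C13 to 0.24 in C26. That of the 6 mitochondrial genes had an SD of 0.101, from -0.29 in J980 to 0.14 in C12. That of the 38 cytosolic genes had an SD of 0.0427, from -0.10 in J980 to 0.06 in H893. A mean over more genes varies less, so these SDs are not a comparison of single genes, whose median SD was 0.20 in the ER lumen, 0.22 in mitochondria and 0.19 in the cytosol. Among the ER lumen genes, PDIA4 (0.55) and HSP90B1 (0.52) had the largest SDs. With the median over genes in place of the mean, the ER lumen ran from -0.21 in C13 to 0.17 in C26. Mitochondria then had a similar range, from -0.25 in J980 to 0.15 in C12.

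C13 had the lowest ER lumen mean. That mean was -0.37, with 9 of 11 genes below 0, while its cytosolic mean was -0.04 and its mitochondrial mean -0.07. J980 was second lowest in the ER and lowest in the others, with an ER lumen mean of -0.33, a cytosolic mean of -0.10 and a mitochondrial mean of -0.29. C26 had the highest ER lumen mean, 0.24 with 9 of 11 genes above 0, against -0.02 in the cytosol and 0.02 in mitochondria. Follicle 31 had an ER lumen mean of -0.10 with 9 of 11 genes below 0, while 24 of 38 cytosolic genes were above 0.

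Over the 16 follicles the ER lumen mean had a Pearson r of 0.320 and a Spearman rho of 0.044 with the cytosolic mean. With the mitochondrial mean, r was 0.557 and rho 0.338. Cytosolic and mitochondrial means had r of 0.659 and rho of 0.459. Without C13 and J980 the r of the ER with the cytosol was -0.40, and with mitochondria it was -1.58e-04. Without J980 alone these r were 0.00582 and 0.273. The positive r with the cytosol thus rested on J980, and that with mitochondria on these 2 follicles. Without J980 and H893, the r of cytosol with mitochondria was 0.664. Leaving out J980 alone gave r of 0.385 and rho of 0.343 for that pair, and leaving out H893 alone gave r of 0.810. These are descriptions with no test, over points that share arrays.

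**Figure D4:**
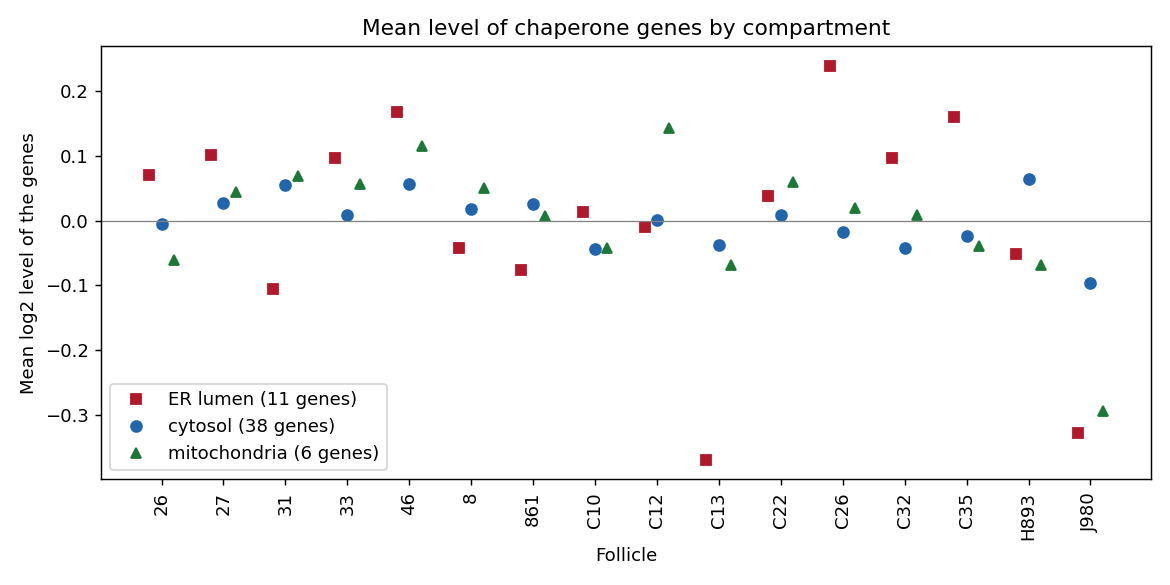
Mean log2 level of the tested chaperone genes of the ER lumen (11 genes, red squares), the cytosol (38 genes, blue circles) and mitochondria (6 genes, green triangles) in each follicle, with each gene relative to its mean of 16. In J980 the ER and mitochondrial means are low (-0.33 and -0.29), in C13 the ER mean is lowest (-0.37), and the cytosolic means stay between -0.10 and 0.06.

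HSPA5 was set against each other chaperone gene over the 16 follicle levels, with two-sided permutation tests of 100000 resamples. With p-values adjusted over all 9030 other genes, 2 of 61 chaperone genes passed by Pearson r, CCT6A and PDIA6, both positive, where 0.62% of all genes passed and 0.443% did so with a positive r. CCT6A had r = 0.879 (permutation p = 2e-05, adjusted 0.0226). Its rho was 0.762 (permutation p = 0.00105, adjusted 0.111), and leaving out J980 and C13, the 2 follicles farthest from the median HSPA5 level, gave r = 0.699. PDIA6 had r = 0.814 (permutation p = 1.5e-04, adjusted 0.0347). Its rho was 0.668 (permutation p = 0.00549, adjusted 0.166), and without the same follicles r was 0.562. Without J980 alone its r was 0.677, without J980's arrays it was 0.605, and in both cases it no longer passed when adjusted over the chaperone genes. HSPD1, HSPA9 and HSPB2 followed with r of 0.788, 0.752 and -0.737, which did not pass (adjusted p of the permutation test = 0.0572, 0.0737 and 0.0693). By rho none of the 61 passed the permutation test, nor did any of the 9030 genes, and 21 of the 61 had an unadjusted p under 0.05, where 17.4% of all genes did. Over the 61 genes the median r with HSPA5 was 0.20 and 41 were positive, against a median of 0.00 and 4505 positive over all 9030. Without J980 and C13 the median over the 61 was 0.12. By place, leaving out these follicles moved the median r from 0.34 to -0.16 over 10 ER lumen genes. It moved from 0.18 to 0.27 over 38 cytosolic genes and from 0.24 to 0.07 over 6 mitochondrial genes. The test treats follicles as independent, while neighbours in the loop share an array and so some error.

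HSP90B1, which shares the ER lumen with HSPA5, followed it less. The pair had r = 0.536 (permutation p = 0.0326, adjusted 0.227), while its rho was 0.047 (permutation p = 0.866, adjusted 0.947). Its r was -0.30 without J980 and C13. HSP90B1 and PDIA4 had r of 0.728 and rho of 0.718, and r of 0.801 without J980, as a description. HSPA5 and PDIA4 had r of 0.256. The closest pairs among the 4 ER genes past the F test were thus HSPA5 with PDIA6 and HSP90B1 with PDIA4.

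**Figure D5:**
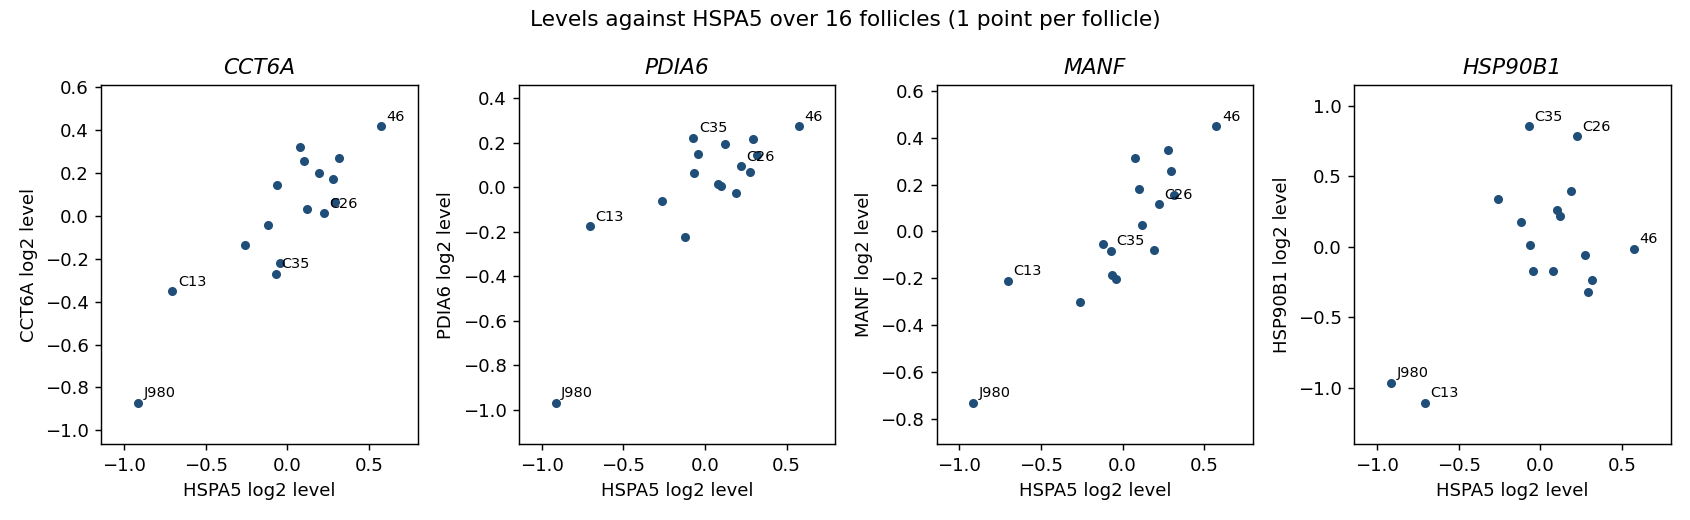
Log2 levels of CCT6A, PDIA6, MANF and HSP90B1 (vertical axes) against that of HSPA5 (horizontal axis) in 16 follicles, each point 1 follicle, with 5 follicles named. CCT6A has an r of 0.879 with HSPA5 (0.780 without J980) and MANF one of 0.872, PDIA6 (0.814) has an r of 0.677 without J980, and HSP90B1 is low in J980 and C13 and has an r of -0.30 with HSPA5 in the other 14.

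Among the 1010 genes outside the set that passed the F test, the 8 with the highest r with HSPA5 over the 16 follicles were YWHAH (0.923), TUBA4A (0.892), YWHAZ (0.874), MANF (0.872), SSR1 (0.867), TEAD3 (0.856), TUBB4B (0.853) and PKM (0.826). MANF is made in the ER lumen and SSR1 is a subunit of the translocon-associated complex, while YWHAH and YWHAZ are 14-3-3 adaptor proteins and TUBA4A and TUBB4B are tubulins. Without J980 and C13, MANF had an r of 0.833 and the other 7 had r between 0.527 and 0.710. The lowest r were those of PIGP (-0.856), CLN8 (-0.822), RPS29 (-0.737) and LOC617785 (-0.735). These r are descriptions chosen by their size.

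Other steps of ER protein handling were read from lists outside the chosen symbols, to be read against the 11.3% of all genes that passed the F test. Of 12 genes of ER stress sensing and response, 3 passed the F test (25%). DDIT3, a transcription factor of the response, ran from -0.45 in J980 to 0.36 in 46, MANF from -0.73 in J980 to 0.45 in 46, and ATF4, the factor upstream of DDIT3, from -0.39 in C13 to 0.40 in 26. Of 30 genes of ER oxidation, proline isomerisation and glycan checks, 7 passed (23.3%). SERPINH1, the collagen chaperone, was at 1.46 in 31 and no higher than 0.27 elsewhere (adjusted p of the limma F test = 3.50e-04). ERP44, a thioredoxin-like protein, and FKBP2, a proline isomerase, were lowest in J980 at -1.16 and -1.14. GANAB, PRKCSH, KDELR2 and FKBP11 were the others.

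Of 26 genes of ER entry and N-glycosylation, 8 passed (30.8%), among them the oligosaccharyltransferase subunits DDOST, STT3A, STT3B, RPN1 and RPN2. RPN2 ran from -1.64 in J980 to 0.59 in C35, and 7 of the 26 were lower in J980 by the contrast, where 6.03% of all genes were. Of 18 genes of ER-associated degradation, 2 passed, SELENOS and DERL2, a share of 11.1% and so close to that of all genes. Of 20 genes listed as cytosolic co-chaperones, with the small heat shock protein CRYAB counted among them, 6 passed. CRYAB came first, then STUB1, PFDN6, PTGES3, PFDN4 and PFDN1, and 4 of the 20 were lower in J980. Of 8 genes of mitochondrial folding, 2 passed, YME1L1 (highest in C10 at 0.78) and PHB1 (lowest in J980 at -0.81). The median level in J980 was -0.18 for ER stress genes, -0.15 for ER oxidation and glycan checks, -0.32 for ER entry and N-glycosylation, -0.04 for ER-associated degradation, -0.32 for cytosolic co-chaperones and 0.04 for mitochondrial folding.

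How far a gene's features agree bears on all of these averages. Of the chaperone genes, 31 had over 1 feature, and the median over genes of the r between features across arrays was 0.109. In 3 genes that r was over 0.5, HSPA5 (0.677), PDIA6 (0.569) and CCT6A (0.539), and in 17 it was under 0.2. Over pairs of features that share no sequence accession, the median r was 0.072 for 47 chaperone pairs and 0.156 for 7297 pairs of all genes. For HSPA4, 2 features that share an accession had r of 0.914, and the third had about -0.29 with each. HSP90B1 and DNAJC19, among the genes past the F test, rest on 1 feature each.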

How the data were processed

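The deposited values were log ratios of the 2 channels of each array, used as log2. Per the labels' protocols, follicle RNA came from the RNAqueous column kit and was labelled with 3DNA dendrimers, then scanned on an Axon GenePix scanner and read with GenePix Pro. For the background correction and the normalization no method is given in the sources used here. The deposited log2 values had array medians of -0.0139 to 0.00639 and SDs of 0.278 to 0.544, and each array held 16094 to 17028 values. The base was taken as 2 because the largest absolute value, 6.32, is above 4.82, the limit for log10 ratios when intensities have 16 bits. That limit does not exclude natural logs.

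Features were named by the platform annotation of 2007, and 13575 matched the RefSeq ARS-UCD2.0 table by gene ID, with 0 symbols changed. All 110 chaperone features matched. Another 8 features list several symbols with a chaperone name among them and were left out, save the 2 for HSPA1A, described apart.

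Each array was centred on its median and the features of a gene were averaged. In limma 3.58.1 (R 4.3.3), log ratios were fitted with a term per follicle and a dye term, leaving 8 residual degrees of freedom with full data, for genes on at least 20 arrays. A moderated F test and a contrast of each follicle with the other 15 were adjusted by Benjamini-Hochberg over all 9031 genes at 0.05. Compartment means carry no test. Correlations with HSPA5 used 100000 permutations in Python 3.11.15. They were first planned with adjustment over the 61 chaperone genes, and adjustment over all genes was added after the data were seen. Fits were checked on simulated data.

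The chaperone genes and all lists were chosen with earlier results of these data known. Genes are named in the text if past the F test, among the 3 of smallest p in a compartment or outside list, among set chaperones and markers, or among the 8 most and 4 least like HSPA5. DNAJC12, HSPA4, HSPB2, HSPB8, HSPBP1, PDIA2, DNAJC1, DNAJA3, DNAJC11 and the metallothioneins fall outside this and were picked with their values in view. The alternatives tried concerned the centring, scaling, dye term, array minimum, moderation and averaging, or left out arrays or follicle J980.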

Additional observations from a re-analysis of the deposited data

How the results depend on the processing

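The fit used the pairing of 2 follicles on each array. The labels carry no replicate numbers, and those used here only follow the order of the samples. PDIA4 and CCT2 passed the F test under every alternative tried, HSP90B1 under all but that of genes on all 24 arrays, where it could not be fitted, and HSPA5 under all but the fit without moderation. The count of all genes past the F test, 1020 in the main fit, was 579 with no dye term, 576 with no moderation and 642 without follicle J980 and its arrays. Leaving out 1 array at a time gave 658 to 1122, and the lowest counts, 658 and 662, came without replicate 2 of 31 and without replicate 2 of 33. The count of chaperone genes past the F test, 10 in the main fit, was 5 with no moderation, 6 without J980, and 8 to 13 with 1 array left out. These counts can include genes that did not pass in the main fit. HSPA9 was lost in 16 of 24 such fits. P4HB and HSP90AB1 passed with 1 feature per gene (adjusted p of limma's F test = 0.0137 and 0.0134). The 12 calls of a gene in a follicle became 5 without J980 and 1 to 18 with 1 array left out: 1 without C10 replicate 1, 3 without C26 replicate 1, 4 without 26 replicate 2, 6 without C32 replicate 1 and 7 without C22 replicate 1. HSPA8 in J980 was lost in 16 of those 24 fits, PDIA4 in C26 in 6, HSP90B1 in C26 in 4 and HSPA5 in J980 only without C10 replicate 1, which ended all 8 calls in J980. Counts of such calls over all genes in these refits are not reported here. The losses can thus not be called particular to the chaperone genes. The number of chaperone genes whose r with HSPA5 passed was 9 when adjusted over these genes, 2 over all genes, 14 with 1 feature per gene, 4 without J980's arrays and 1 to 15 with 1 follicle level left out (1 without J980, 2 without 46, 5 without 861 or H893, 15 without C13). The r of the ER mean with the cytosolic mean was -0.0547 without J980's arrays and 0.00582 to 0.409 with 1 follicle left out. That of the ER with mitochondria was 0.0320 with 1 feature per gene, 0.287 without J980's arrays and 0.273 to 0.608 with 1 follicle left out. That of the cytosol with mitochondria was 0.222 without J980's arrays and 0.385 to 0.810 with 1 follicle left out. The cause of these changes was not tested. Averaging only features on at least 20 arrays and adjusting over all genes were chosen after seeing the data, and averaging does not apply to the single HSPA1A features. Detection above background could not be judged, since the values hold no intensities.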
